A study of Mus musculus with 4 samples.

Results

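The genes described here act in DNA damage signalling and homologous recombination, and were measured by RNA-seq in mouse haploid embryonic stem cells (haESCs). They were taken from a written list of 40 symbols, comprising damage sensors, recombination genes, Fanconi genes and end-joining genes, and a gene belonged to the group if its symbol stood in the deposited expression tables. Of the 40 symbols, 39 were found among 23235, and 1, Rad9a, was not. The cells were of HG165, a single androgenetic haESC line of C57BL/6 origin whose genome is paternal only, so the values describe 1 line. They were treated either with RDF, a mixture of Repsox, which blocks TGF-β signalling, DMH1, which blocks the BMP4 pathway, and Forskolin, which activates adenylate cyclase, or with DMSO alone, the solvent. Each treatment had 2 sequenced samples, 4 in all. The cell line comes from the study's text, while the sample titles name only DMSO or RDF and a replicate number. The culture medium held serum and LIF. The labels name growth on feeder cells, while the study's methods say that most assays, with a few named exceptions that do not include RNA-seq, were done without them. The dose and length of the treatment of these samples and any sorting of haploid cells before RNA was taken are not given in the sources used here. Nothing states that replicates came from separate cultures, so the p-values measure only the spread between these samples, which may be technical.

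Cells meet DNA damage with a shared set of proteins. The kinases ATM and ATR, together with DNA-PK, recognise breaks and stalled replication forks through partner proteins and mark the chromatin around them, most prominently by phosphorylating the histone variant H2AX. A break is then repaired either by homologous recombination, in which the end is cut back by nucleases and copied from the sister chromatid during S and G2 phase, or by end joining, in which the ends are held by the Ku heterodimer and ligated directly. The Fanconi proteins detect crosslinks between the strands and hand them to the recombination machinery. Embryonic stem cells are known for a short G1 phase and a strong use of homologous recombination.

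The deposited values were FPKM, fragments scaled to transcript length and to the mapped fragments of the library, so that levels can be set against each other between genes. The depth, estimated from the steps of the lowest values, lay between 9700000 fragments (DMSO replicate 1) and 12340000 (RDF replicate 1). These estimates are rough, as only 43.4% to 47.8% of the low values then lay within 0.1 of a whole fragment. All 10 listed stem cell markers were expressed, with Pou5f1, the gene of Oct4, between 939 and 1286 FPKM and Nanog between 42.6 and 50.6 FPKM. The 14 feeder fibroblast markers summed to between 52.7 and 53.4 FPKM in DMSO and between 39.03 and 40.3 FPKM in RDF. Of the 10 that were tested, 5 fell and 1, Dcn, rose. Among those too low to be tested, Lum, Col6a3 and Pdgfra had both RDF values above both DMSO values, and Col3a1 overlapped. The 7 endoderm markers summed to between 6.15 and 7.55 FPKM in DMSO and between 10.1 and 10.5 FPKM in RDF. Of the 2 that were tested, Gata6 rose (log2 fold change 0.78, adjusted p = 0.0428 from limma) and Gata4 was not called. None of these markers was at 0 in all samples. Of the stem cell markers, 4 rose (Zfp42, Sall4, Klf4 and Sox2) and 4 fell (Dppa5a, Utf1, Tdgf1 and Pou5f1). Their sum, between 7824 and 7889 FPKM in DMSO and between 4666 and 5138 FPKM in RDF, is mostly that of Dppa5a, with a mean of 5516 FPKM in DMSO and 3035 FPKM in RDF. By flow cytometry the study reported more S-phase and fewer G2/M-phase cells with RDF, HG165 among the lines. It also reported that a larger share of cells stayed haploid. The part of such shifts, in markers, cell cycle phase or ploidy, in the values below was not tested. In bulk RNA, fewer cells that express a gene and less of its RNA per cell cannot be told apart.

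Most of the 39 genes kept nearly the same level with RDF. The tests were run on log2(FPKM + 1) in limma across the 11733 genes whose mean reached 1 FPKM, which all 39 did, with Benjamini-Hochberg adjustment over all of them and a threshold of 0.05. H2afx and Topbp1 rose, Rad50 and Xrcc6 fell, and 35 genes were not called. The 4 calls are 10.3% of the 39 genes, against a background of 21.6% of all genes tested (13.3% called higher and 8.28% called lower). On the log2(FPKM + 1) scale no member changed more than 2-fold, as 1.41% of all genes tested did. This share is not that of 2-fold changes in FPKM, and differs in measure from the study's own fold-change counts. The log2 fold changes of the members ran from -0.26 to 0.35. The 95% confidence intervals of 38 genes lay within 0.5 of no change on that scale in both directions, and that of H2afx reached 0.50 at its upper end. The added 1 makes changes of low genes smaller, and 11 of the 39 had a mean under 5 FPKM, so their bounds in FPKM are wider. Taken without sign, the log2 fold change had a median of 0.124 for the 39 genes and 0.164 for all genes tested, while the replicates of the 39 genes differed by a median of 0.0663 in DMSO and 0.0531 in RDF. At an unadjusted p of 0.05, limma counted 7 of the 39 genes, against 38.0% of all genes.

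The small differences leaned upward. In 27 genes the mean was higher in RDF and in 12 it was lower, a share of 69.2% against 54.4% of all genes, and the median log2 fold change was 0.088 against 0.026 for all genes. Both RDF values lay above both DMSO values in 21 genes (background 37.1%), and below them in 5 (background 28.5%), so that the groups stood apart in 26 genes, 66.7% against 65.5% of all genes, and overlapped in 13. The 39 genes also differed from the rest in transcript length and base composition. The median transcript of the 39 genes was 4485 bases long with 46.2% GC. That of the 11317 tested genes with a transcript sequence was 2880 bases long with 50.8% GC. When these 11317 genes were divided into 4 equal bins of GC content, 19 of the 39 fell in the lowest. Over the 11317 genes the median log2 fold change was 0.064 in that bin, 0.038 and 0.003 in the next ones and -0.004 in the bin richest in GC. When the trend of each sample on length and GC content was removed, the median of the 39 genes became -0.018, with 17 genes higher and 22 lower in RDF. Over all 11317 genes with a transcript sequence, the same step took the median from 0.027 to -0.008, with 5516 genes higher and 5801 lower. Length and GC content were removed together, and the part of each alone was not tested.

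**Figure D1:**
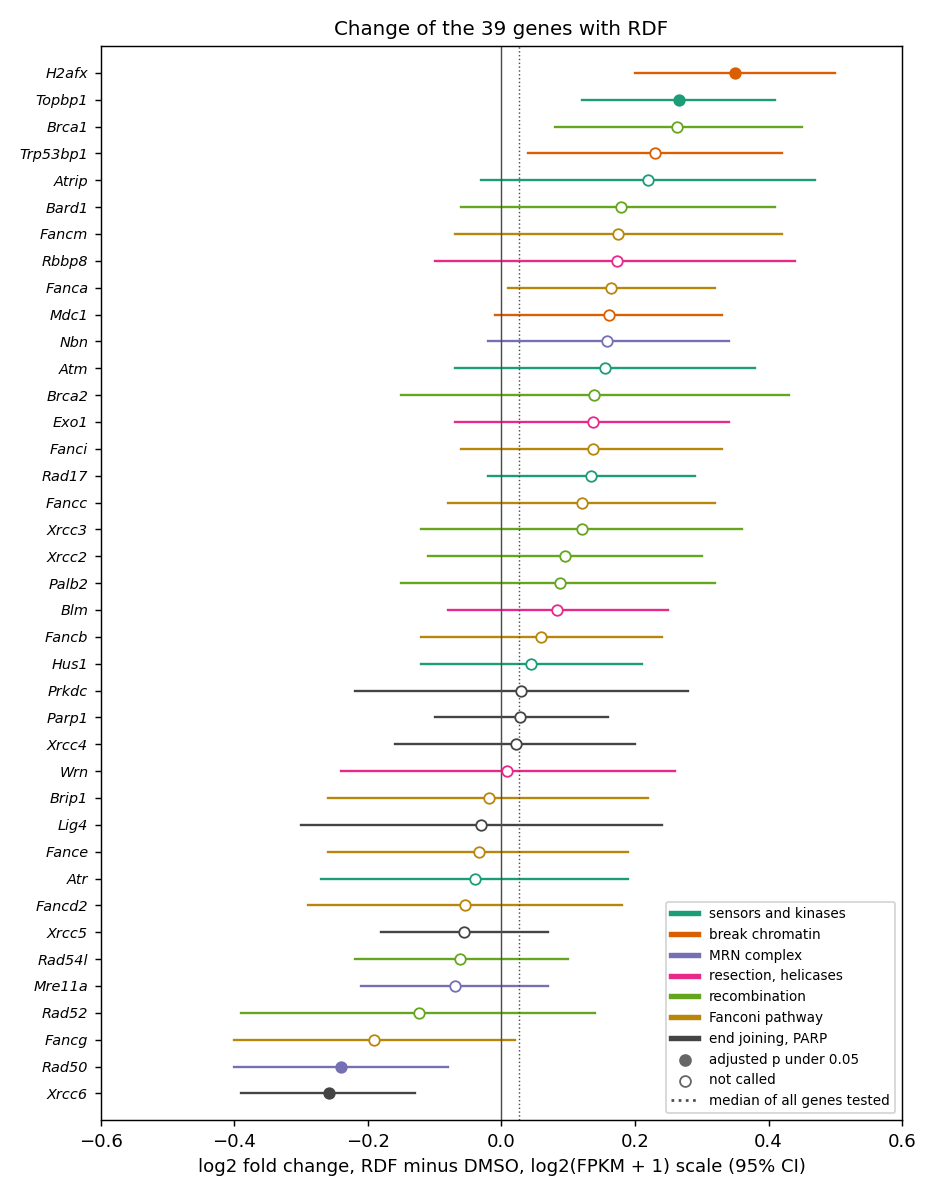
Log2 fold change of each of the 39 genes, RDF minus DMSO, on the log2(FPKM + 1) scale, with its 95% confidence interval from limma, where filled points passed the threshold. The points run from -0.26 to 0.35, and the filled ones are the 2 largest rises, H2afx and Topbp1, and the 2 largest falls, Xrcc6 and Rad50.

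The levels of the genes spanned more than the treatment moved them. The mean over the 4 samples ran from 1.62 FPKM for Brca2 to 202 FPKM for Parp1, with a median of 7.29 FPKM against 10.1 FPKM for all genes tested. Parp1, H2afx and Xrcc5 were the 3 genes over 50 FPKM, and 11 genes had a mean under 5 FPKM. The estimated depth puts between 51 fragments, for Rad52, and 9482 fragments, for Parp1, behind a single value, and 20 genes had more than 300 fragments in every sample. These are approximate, as they use the longest annotated transcript, and only 9 of the 39 genes have a single annotated transcript. In the GENCODE annotation, which is not the UCSC one behind the FPKM, 16 of the 39 overlap a gene on the other strand. In it, 6 overlap one on their own strand.

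**Figure D2:**
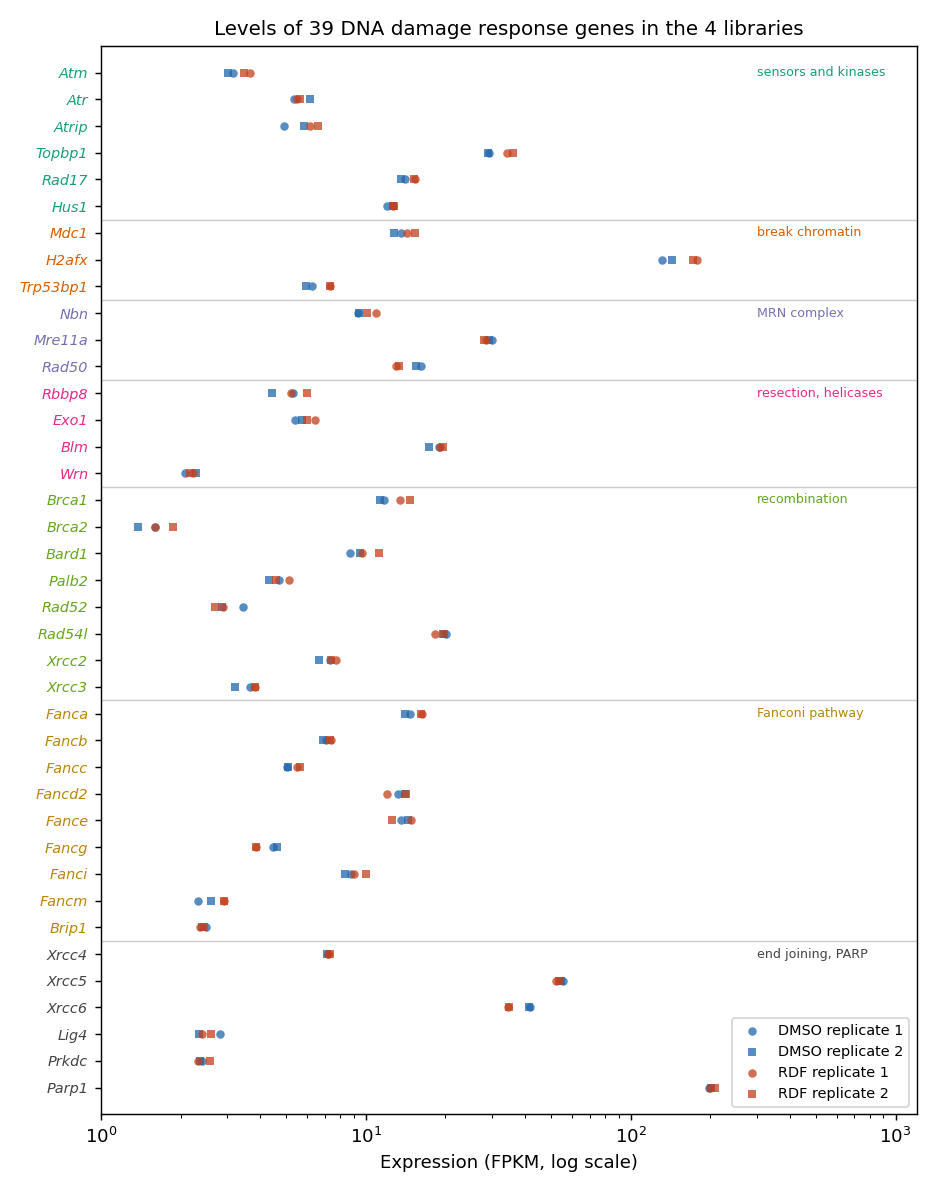
Expression of the 39 genes in the 4 samples in FPKM on a log axis, grouped by role, with DMSO in blue and RDF in red, circles for replicate 1 and squares for replicate 2. The genes spread from 1.37 FPKM for the lowest value of Brca2 to 208 FPKM for the highest of Parp1, while the 4 values of any 1 gene lie close together.

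Among the sensors of damage, Topbp1 rose. It encodes the protein that activates ATR at single-stranded DNA. The DMSO samples held 29.1 and 28.9 FPKM and the RDF samples 34.1 and 36.1 FPKM, so that both RDF values lay above both DMSO values. Its mean went from 29.0 ± 0.142 to 35.1 ± 1.43 FPKM (SD, n = 2 each), with an adjusted p of 0.0268 from limma and a log2 fold change of 0.27 ± 0.059 (SE). The gene lies on the plus strand of chromosome 9, from 103207545 to 103252762 in the build NCBIM37, which is mm9. The call was lost when any one of the 4 samples was left out, with a log2 fold change between 0.23 and 0.31, and when the length and GC trend was removed, with a log2 fold change of 0.13 and an adjusted p of 0.109. It was also lost without the mean-variance trend (adjusted p = 0.0562). Topbp1 was also the only one of the 30 members with a promoter window in RefSeq that holds either of the E2F motifs searched, TTTCGCGC and TTTGGCGC, on either strand of the 250 bases before and 50 bases after the start. This 1 gene is 3.33% of the 30 members, against 0.929% of all 27025 genes with such a window, and whether the motif acts here was not tested. The sequence below is shown because it carries that match. It is from the RefSeq window (table build GRCm38.p6), covers the part before the first annotated exon, and was placed by exact match at chr9:103207413-103207544 of NCBIM37, plus strand, with the motif, on the other strand, in capitals.
Topbp1 promoter: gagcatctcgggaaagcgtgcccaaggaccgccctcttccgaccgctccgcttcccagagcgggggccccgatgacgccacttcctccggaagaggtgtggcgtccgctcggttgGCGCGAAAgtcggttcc

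The kinases and their loading factors were not called. Atr, the kinase of stalled forks, had 5.37 and 6.14 FPKM in DMSO and 5.49 and 5.64 FPKM in RDF, so the RDF values lay between the DMSO values. Its obligate partner Atrip had 4.89 and 5.83 FPKM in DMSO and 6.17 and 6.62 FPKM in RDF, a log2 fold change of 0.22 with an interval from -0.03 to 0.47 (adjusted p = 0.173 from limma). The Atrip gene overlaps Trex1 on the same strand, so fragments could have been divided between them. Atm, the kinase of double-strand breaks, had 3.17 and 3.02 FPKM in DMSO and 3.65 and 3.47 FPKM in RDF (adjusted p = 0.269). Rad17, which loads the sliding clamp of the checkpoint, and Hus1, a subunit of that clamp, had log2 fold changes of 0.13 and 0.04 (adjusted p = 0.186 and 0.672). A row named Rad9, which RefSeq lists as a synonym of Rad9a, another clamp subunit, is not counted among the members. It had 27.1 and 27.2 FPKM in DMSO and 25.8 and 26.5 FPKM in RDF (log2 fold change -0.05, adjusted p = 0.525).

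The largest rise was that of H2afx, the gene of the histone variant H2AX. The DMSO samples held 131 and 143 FPKM and the RDF samples 178 and 172 FPKM. The lower RDF value was above the higher DMSO value by more than the replicates of either group differed. The mean went from 137 ± 7.99 to 175 ± 4.40 FPKM (SD, n = 2 each), 27.5% higher, with an adjusted p of 0.0137 from limma and a log2 fold change of 0.35 ± 0.062 (SE). H2afx lies on the plus strand of chromosome 9 from 44142798 to 44144154, with 1 annotated transcript of 1357 bases and no overlapping gene. It was the only member called in all alternatives that kept the 4 samples, with an estimate between 0.32 and 0.40 in these, and its call was lost when either RDF sample was left out (adjusted p up to 0.0965).

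The other genes of break chromatin were not called. Trp53bp1, whose protein binds modified nucleosomes at breaks and favours end joining, had 6.27 and 5.95 FPKM in DMSO and 7.31 and 7.36 FPKM in RDF, without overlap. The gene overlaps Tubgcp4 on the other strand. Its log2 fold change was 0.23 (interval 0.04 to 0.42, adjusted p = 0.0866 from limma), and 0.04 with the length and GC trend removed. Mdc1, whose protein reads phosphorylated H2AX and recruits the ubiquitin ligases, had 13.5 and 12.8 FPKM in DMSO and 14.4 and 15.3 FPKM in RDF (log2 fold change 0.16, adjusted p = 0.156), and a log2 fold change of 0.009 with that trend removed.

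Rad50, Mre11a and Nbn encode the MRN complex, which binds broken ends, tethers them and activates ATM. Rad50, the subunit with the long coiled coil, had 16.1 and 15.5 FPKM in DMSO and 13.1 and 13.4 FPKM in RDF, both RDF values being lower. It fell from 15.8 ± 0.435 to 13.2 ± 0.244 FPKM (SD, n = 2 each), with an adjusted p of 0.0475 from limma and a log2 fold change of -0.24 ± 0.065 (SE), on the minus strand of chromosome 11 from 53463021 to 53520821. The call stood at the threshold: it was lost with any sample left out, without the filter on low values (adjusted p = 0.0740) and without the mean-variance trend (adjusted p = 0.0666). The nuclease gene Mre11a had 30.1 and 29.2 FPKM in DMSO and 28.5 and 27.9 FPKM in RDF, a log2 fold change of -0.07 (adjusted p = 0.405). With the length and GC trend removed, Mre11a was at -0.22 with an adjusted p of 0.0382, and Rad50 at -0.37 with an adjusted p of 0.00791. The third subunit gene, Nbn, stood the other way, with 9.32 and 9.39 FPKM in DMSO and 10.97 and 10.1 FPKM in RDF (log2 fold change 0.16, adjusted p = 0.180).

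Of the genes of end joining, Xrcc6 fell. It encodes a subunit of the Ku heterodimer, whose other subunit is encoded by Xrcc5. Xrcc6 had 41.8 and 41.5 FPKM in DMSO and 34.5 and 34.8 FPKM in RDF, both RDF values being lower. It fell from 41.6 ± 0.239 to 34.6 ± 0.227 FPKM (SD, n = 2 each), with an adjusted p of 0.0213 from limma and a log2 fold change of -0.26 ± 0.053 (SE). Its call was lost with any sample left out, with an estimate between -0.26 and -0.25, and without the mean-variance trend (adjusted p = 0.0511). In the GENCODE annotation the gene lies on the plus strand of chromosome 15 from 81818265 to 81870515 and overlaps Pppde2 on the other strand. The FPKM were made on the UCSC annotation, and the RefSeq window before the start of Xrcc6 ends at 81846798, inside that span. Whether strand was used in counting is not given in the sources used here, so reads of Xrcc6 and Pppde2 may not have been told apart. Pppde2 itself had between 13.9 and 14.7 FPKM in the 4 samples. Xrcc5 had 55.4 and 54.4 FPKM in DMSO and 52.1 and 53.4 FPKM in RDF, also without overlap but with a log2 fold change of only -0.06 (adjusted p = 0.467).

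The remaining end-joining genes were not called. Prkdc, the catalytic subunit of DNA-PK, had a log2 fold change of 0.03, Xrcc4 of 0.02 and Lig4, the ligase that works with the product of Xrcc4, of -0.03, with adjusted p between 0.856 and 0.862. The intervals ran from -0.22 to 0.28 for Prkdc, from -0.16 to 0.20 for Xrcc4 and from -0.30 to 0.24 for Lig4. Parp1, whose protein detects nicks and breaks and builds poly(ADP-ribose), was the most abundant of the 39 transcripts. It had 198 and 201 FPKM in DMSO and 199.8 and 208 FPKM in RDF, a log2 fold change of 0.03 with an interval from -0.10 to 0.16.

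**Figure D3:**
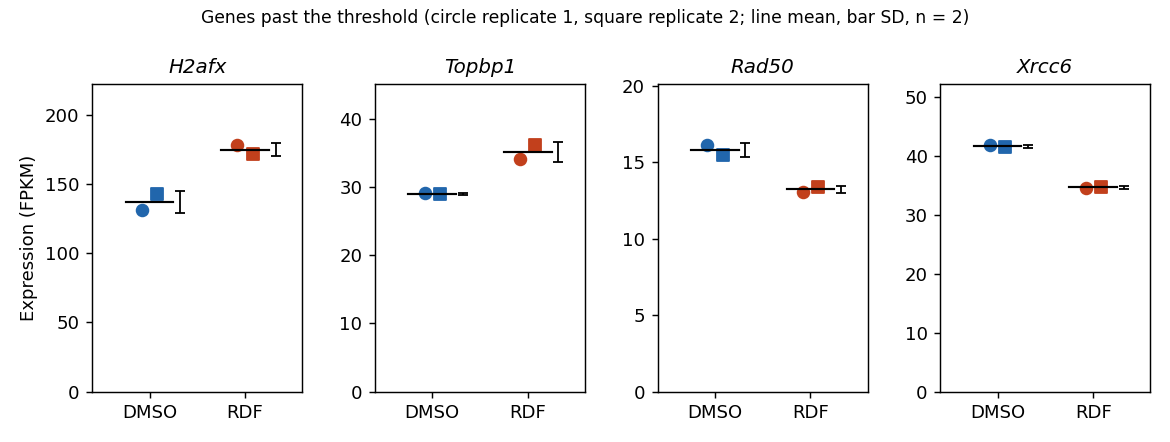
Expression in FPKM, from 0, of the genes past the threshold in each sample, with DMSO in blue and RDF in red, circles for replicate 1 and squares for replicate 2, lines for the mean and bars for the SD (n = 2). In H2afx and Topbp1 both RDF values lie above both DMSO values, and in Rad50 and Xrcc6 both lie below them.

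None of the 8 recombination genes was called. Brca1, whose protein promotes end resection and the loading of the recombinase, came nearest. It had 11.8 and 11.3 FPKM in DMSO and 13.4 and 14.7 FPKM in RDF, with a log2 fold change of 0.26 ± 0.075 (SE), an interval from 0.08 to 0.45 and an adjusted p of 0.0545 from limma. The adjusted p of Brca1 was 0.0492 when only genes of at least 5 FPKM were tested, and its log2 fold change was 0.10 with the length and GC trend removed. Bard1, which encodes the ring-finger partner of Brca1's product, had 8.69 and 9.52 FPKM in DMSO and 9.65 and 11.3 FPKM in RDF (log2 fold change 0.18, adjusted p = 0.229). Palb2, which joins the products of Brca1 and Brca2, had a log2 fold change of 0.09 (adjusted p = 0.543).

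Brca2, which encodes the loader of the recombinase, was the lowest of the 39 genes. It had 1.61 and 1.37 FPKM in DMSO and 1.61 and 1.88 FPKM in RDF, so the groups overlapped, and its log2 fold change was 0.14 with an interval from -0.15 to 0.43 (adjusted p = 0.432 from limma). Its promoter window is shown because it is the only one of the 30 members' windows that holds the full cAMP response element TGACGTCA, a motif bound by the CREB factors that act under adenylate cyclase. This 1 gene is 3.33% of the 30 members, against 2.03% of all genes with a window. Whether the motif acts in these cells was not tested. The 250 bases before the start, from RefSeq (table build GRCm38.p6), match chr5:151324946-151325195 of NCBIM37, plus strand, with the motif in capitals.
Brca2 promoter: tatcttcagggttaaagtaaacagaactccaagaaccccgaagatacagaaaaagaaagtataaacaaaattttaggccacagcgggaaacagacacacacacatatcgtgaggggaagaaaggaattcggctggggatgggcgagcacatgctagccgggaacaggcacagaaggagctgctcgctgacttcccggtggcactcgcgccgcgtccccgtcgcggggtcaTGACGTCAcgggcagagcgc

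The other recombination genes divided in direction. Rad52, an annealing factor, had 3.43 and 2.87 FPKM in DMSO and 2.90 and 2.70 FPKM in RDF, with overlap (log2 fold change -0.12, adjusted p = 0.445 from limma). Rad54l, which encodes a motor protein that remodels the recombination filament, had a log2 fold change of -0.06 (adjusted p = 0.537). Xrcc2 and Xrcc3, which encode paralogs of the recombinase, had log2 fold changes of 0.10 and 0.12 (adjusted p = 0.440 and 0.410). Of the genes of resection and unwinding, the nuclease gene Exo1 had 5.405 and 5.72 FPKM in DMSO and 6.42 and 6.02 FPKM in RDF (log2 fold change 0.14, adjusted p = 0.280). Rbbp8, the gene of the resection factor CtIP, had a log2 fold change of 0.17 (adjusted p = 0.301) with overlap of the groups. The helicase genes Blm and Wrn had log2 fold changes of 0.08 and 0.01 (adjusted p = 0.416 and 0.966). The CHR motif TTTGAA of cell cycle promoters, searched on both strands as well, was found in the windows of 2 of the 30 members, Hus1 and Bard1, a share of 6.67% against 20.2% of all genes.

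None of the 9 Fanconi genes was called, and their log2 fold changes ran from -0.19 to 0.17. Fanca, of the core complex, had 14.7 and 14.03 FPKM in DMSO and 16.3 and 16.1 FPKM in RDF (log2 fold change 0.16, adjusted p = 0.122 from limma). Fancg, of the same complex, stood the other way, with 4.47 and 4.63 FPKM in DMSO and 3.86 and 3.87 FPKM in RDF, without overlap (log2 fold change -0.19, interval -0.40 to 0.02, adjusted p = 0.162). The values of Fancb and Fancc were also higher in both RDF samples, with log2 fold changes of 0.06 and 0.12, while those of Fance overlapped (-0.03). Fancm, which encodes the translocase that anchors the core complex to DNA, had 2.33 and 2.61 FPKM in DMSO and 2.91 in both RDF samples (log2 fold change 0.17, adjusted p = 0.251). Fancd2 and Fanci encode the pair of proteins that the core complex ubiquitinates. Fancd2 had 13.2 and 14.04 FPKM in DMSO and 12.0 and 14.2 FPKM in RDF, with a wider spread in RDF than the difference between the means, and Fanci had 8.77 and 8.36 FPKM in DMSO and 9.06 and 9.99 FPKM in RDF (adjusted p = 0.705 and 0.266). Brip1, the helicase that binds the product of Brca1, had a log2 fold change of -0.02 with an interval from -0.26 to 0.22 (adjusted p = 0.908).

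**Figure D4:**
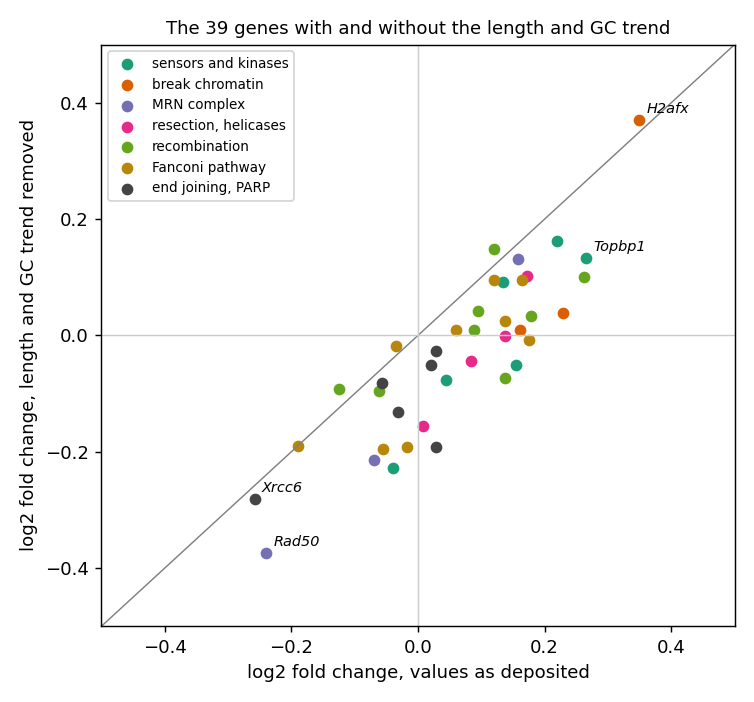
Log2 fold change of the 39 genes with the values as deposited, on the horizontal axis, against that with the smooth trend of each sample on transcript length and GC content removed, on the vertical axis, coloured by role, with the line of equality. Of the points, 34 lie below the line, and the median moves from 0.088 to -0.018, while H2afx and Xrcc6 are at 0.37 and -0.28.

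Ratios of partner transcripts within a library do not depend on the scaling between libraries. They were taken for 8 pairs of known partners, chosen after the fold changes were known, and no p is given, since the smallest two-sided p of an exact permutation test is 0.333 at this size. The ratio of Xrcc6 to Xrcc5 was 0.754 and 0.762 in DMSO and 0.662 and 0.651 in RDF. The groups did not overlap and the gap between them was wider than either pair of replicates. The ratio of Rad50 to Mre11a was likewise lower in RDF, at 0.459 and 0.481 against 0.536 and 0.531, and that of Nbn to Mre11a was higher, at 0.385 and 0.364 against 0.310 and 0.322. The ratio of Atrip to Atr was 0.911 and 0.950 in DMSO and 1.12 and 1.17 in RDF. That of Fanci to Fancd2 was also higher in both RDF samples, at 0.756 and 0.701 against 0.664 and 0.595. For Bard1 to Brca1, Brca2 to Palb2 and Lig4 to Xrcc4 the groups overlapped, with means of 0.790 and 0.743, 0.330 and 0.361, and 0.361 and 0.344 in DMSO and RDF.

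**Figure D5:**
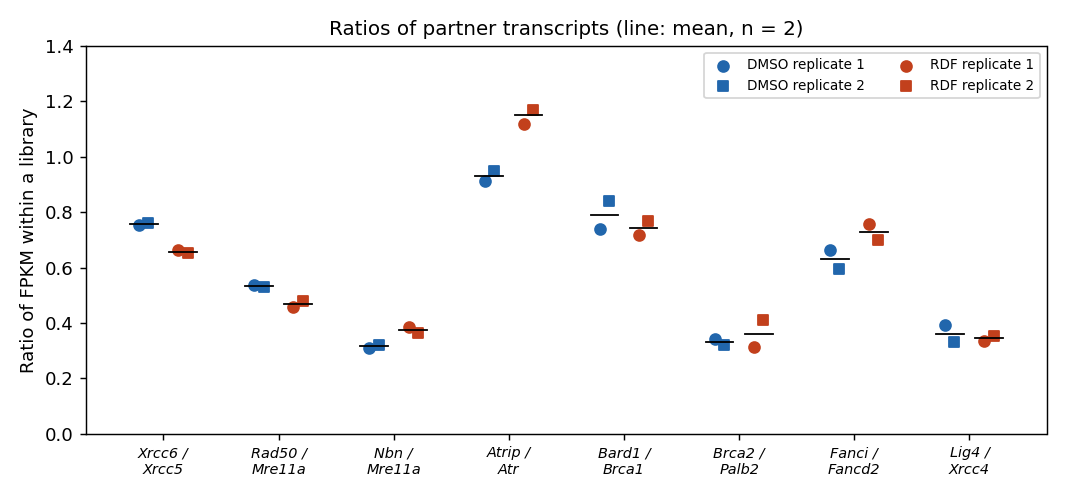
Ratio of the FPKM of partner genes within each library, from 0, with DMSO in blue and RDF in red, circles for replicate 1 and squares for replicate 2, and lines for the mean (n = 2). The groups are apart for Xrcc6 to Xrcc5, Rad50 to Mre11a, Nbn to Mre11a, Atrip to Atr and Fanci to Fancd2, and overlap for the others. The share of other gene pairs that stand apart was not measured.

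A further list of genes of the same pathways that are no members gave 84 symbols in the tables, of which 79 were tested, 8 rose and 2 fell. The calls were 12.7%, against 21.6% of all genes tested (13.3% called higher and 8.28% called lower). The median log2 fold change was 0.04. Among 19 other checkpoint genes, 3 rose and 1 fell, 21.1% called, which is near the share of all genes. Wee1, the kinase that holds cells before mitosis, went from 23.8 ± 1.48 to 37.4 ± 0.635 FPKM (SD, n = 2 each), with an adjusted p of 0.00310 from limma and a log2 fold change of 0.64. The study itself reported that RDF left Wee1 unchanged, in mRNA by Q-PCR, with HG165 among the lines, and in protein by western blot of another line. Why the RNA-seq values differ from the Q-PCR was not tested. Etaa1, which encodes another activator of ATR beside the product of Topbp1, rose by a log2 fold change of 0.47 (adjusted p = 0.00960), and Ppm1d, a phosphatase that ends the damage signal, by 0.46 (adjusted p = 0.0185). Rad1, which encodes the clamp partner of Hus1's product, fell, with a log2 fold change of -0.28 (adjusted p = 0.0271). It is named as the only fall among the checkpoint genes, after its value was seen. Of 17 tested genes that act through ubiquitin and methylation at breaks, Rif1, which works with the product of Trp53bp1, and Setd8 rose by 0.50 and 0.29, and 0 fell (adjusted p = 0.00603 and 0.0154). Of 30 other recombination and Fanconi genes, 2 rose: Usp1, whose product removes ubiquitin from the Fanconi pair, by 0.42 (adjusted p = 0.00640), and Rad51l1 by 0.41 (adjusted p = 0.0249). Of 13 other end-joining and break-repair genes, 1 rose and 1 fell. The one that rose was Xrcc1, a scaffold of single-strand break repair, by 0.27 on the log2 scale (adjusted p = 0.0343 from limma). With all samples kept, its call was lost without the filter on low values, with median-ratio scaling and without the mean-variance trend. Those of Rad51l1 and Ppm1d were lost without that filter. Without RDF replicate 1 or 2 the counts over these lists were 2 up and 0 down, and 1 up and 0 down.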

How the data were processed

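RNA-seq was measured in 4 samples, 2 treated with DMSO and 2 with RDF, grouped by their titles. The authors made stranded mRNA libraries from 150 ng of total RNA, mapped the reads with TopHat2 2.0.14 and Bowtie2 2.1.0, and deposited FPKM per gene symbol from Cufflinks 2.2.1 on the UCSC mm9 annotation (versions from the submitters' processing notes). FPKM already include scaling to depth and length, and hold no counts.

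Genes whose mean reached 1 FPKM were tested on log2(FPKM + 1), so that changes of low genes are understated, with limma 3.58.1 in R 4.3.3 (lmFit, eBayes with a mean-variance trend, no block, Benjamini-Hochberg adjustment over all genes tested). The fit was run on simulated data, where recovery of changed genes was required only at an effect larger than any member showed. Depth was estimated from genes with 1 transcript, and fragments cover counting error only. Positions, transcripts and overlaps are those of the GENCODE annotation of NCBIM37, not of the UCSC annotation behind the FPKM, and 11317 genes tested have length and GC content. Promoter windows came from RefSeq, matching 30 of 39 genes, not H2afx, Nbn, Rad50, Rbbp8, Exo1, Wrn, Xrcc2, Fancd2 and Prkdc.

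The members and lists were chosen with earlier results of these data known. All members are named, with sample values for those called and the 5 largest rises and falls at least, and of the other lists the 3 called genes with the largest change, of which 1 gene is not reported here. Alternatives were another pseudocount, other filters, median-ratio scaling, quantile normalization, no trend, a replicate block, removal of the length and GC trend, and leaving out each sample.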

Additional observations from a re-analysis of the deposited data

How the results depend on the processing

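Only 2 samples a group limit the test, and the tables hold no counts. Where a sample was left out, the lone sample of its group was assumed to vary like the other group. The members called higher (2 as reported) were 1 without the mean-variance trend and 1 with the length and GC trend removed, without or with the replicate block, and between 0 and 1 with a sample left out. Those called lower (2 as reported) were 1 without the filter on low values, 0 without the mean-variance trend, 1 with the replicate block, and 0 with any sample left out. Over all genes, 1561 were called higher and 972 lower, against 942 and 606 without the filter, and 1336 and 1179 with median-ratio scaling, and 1247 and 1089 with quantile normalization. The lower calls were 1932 with the length and GC trend removed and the replicate block. With a sample left out, between 253 and 1121 were called higher and between 195 and 731 lower, fewest without RDF replicate 2. Of the other pathway genes, 8 were called higher, against 5 without the filter, 13 with the trend removed and the block, and between 1 and 7 with a sample left out. Lower calls, 2 as reported, were 5 with quantile normalization, 4 with the block, 6 with the trend removed, 8 with the trend removed and the block, and between 0 and 2 with a sample left out. The members' median of 0.088 was 0.104 with a pseudocount of 0.1, 0.108 with a filter at 5 FPKM, 0.060 with median-ratio scaling, 0.029 with quantile normalization, -0.018 with the length and GC trend removed, without and with the block, and between 0.045 and 0.114 with a sample left out.

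Some members turned in direction, none of them called as reported. With the length and GC trend removed, without and with the block, the log2 fold change was -0.05 for Atm, -0.08 for Hus1, -0.00056 for Exo1, -0.04 for Blm, -0.16 for Wrn, -0.07 for Brca2, -0.0066 for Fancm, -0.05 for Xrcc4, -0.19 for Prkdc and -0.03 for Parp1. With median-ratio scaling it was -0.02 for Wrn, -0.0082 for Xrcc4 and -0.0052 for Parp1. With quantile normalization it was -0.01 for Hus1, -0.04 for Wrn, -0.0078 for Fancb, -0.05 for Xrcc4 and -0.03 for Prkdc. With a sample left out it ran from -0.12 to 0.04 for Atr, from -0.04 to 0.05 for Wrn, from -0.17 to 0.06 for Fancd2, from -0.15 to 0.08 for Fance, from -0.13 to 0.07 for Lig4 and from -0.03 to 0.08 for Prkdc. The cause of these moves was not tested.

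The labels number the replicates, but nothing ties equal numbers. Across 11733 genes, not independent of each other, the deviations of same-numbered samples correlated at 0.134 (Pearson) and 0.114 (Spearman). With the replicate block, Rad50 was no longer called (adjusted p = 0.0566) and the other 3 called members were, with 1 other named gene, Polh, no longer called.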

Other observations

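Genes of the repair pathways beyond breaks and crosslinks were also measured. Of 39 tested genes of mismatch, excision and translesion repair, 3 rose and 2 fell, 12.8% called against 21.6% of all genes tested. Their median log2 fold change was 0.04. Msh6, which encodes a mismatch recognition subunit, rose from 109 ± 2.84 to 134 ± 1.05 FPKM (SD, n = 2 each), with an adjusted p of 0.0139 from limma and a log2 fold change of 0.29. Rev1, of translesion synthesis, went from 2.88 ± 0.278 to 4.15 ± 0.415 FPKM (log2 fold change 0.41, adjusted p = 0.0442), and Polh, a translesion polymerase, from 10.95 ± 0.941 to 8.63 ± 0.245 FPKM (log2 fold change -0.31, adjusted p = 0.0475). The calls of Rev1 and Polh were lost under several alternatives, and those of all 3 genes with either RDF sample left out.

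Of 38 replication genes, 4 rose and 0 fell in limma, 10.5% called against 21.6% of all genes tested. Their median log2 fold change was 0.01. Both RDF values lay above both DMSO values in 12 (background 37.1%) and below them in 9 (background 28.5%). Orc1, of the origin recognition complex, rose by 0.37 on the log2 scale, Mcm10 by 0.32 and Cdt1 by 0.22 (adjusted p = 0.0234, 0.0249 and 0.0372). All 3 calls were lost without the filter on low values and with either RDF sample left out. Those of Mcm10 and Cdt1 were lost with either DMSO sample left out too, that of Orc1 without DMSO replicate 2, that of Mcm10 with the length and GC trend removed, and that of Cdt1 with median-ratio scaling and without the mean-variance trend. Of 22 tested targets of p53, the factor that ATM and ATR activate, 4 rose and 2 fell, with a median log2 fold change of 0.07, and Ppm1d is also among the checkpoint genes. Plk2, a kinase, rose from 9.60 ± 0.148 to 19.4 ± 0.944 FPKM (SD, n = 2 each), with an adjusted p of 0.00129 from limma and a log2 fold change of 0.94. Trp53inp1 rose by 0.75 on the log2 scale and Mdm2, which encodes the ligase that degrades p53, by 0.57 (adjusted p = 0.00267 and 0.00390). Bbc3 and Perp fell, with log2 fold changes of -0.47 and -0.35 (adjusted p = 0.0204 and 0.00950 from limma). They are named as the calls of that direction, after their values were seen. The other 16 targets were not called, Cdkn1a among them (log2 fold change 0.03). The calls were 27.3% of the targets tested, against 21.6% of all genes tested.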
